A study of Mus musculus with 12 samples.

Results

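The genes described here are the 9 genes of antigen presentation by class II molecules of the major histocompatibility complex (MHC) that were matched by Ensembl identifier in a count table of mouse lineage-negative bone marrow. They are the chain genes H2-Aa, H2-Ab1 and H2-Eb1, the invariant chain gene Cd74, the transactivator gene Ciita, and the peptide-editing genes H2-DMa, H2-DMb1, H2-DMb2 and H2-Ob. They were chosen by name as a pathway and make up 9 of the 31060 genes in the table. All 9 passed the filter on low counts and were among the 15630 genes tested.

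The study profiled RNA from lineage-negative marrow, which is marrow depleted of cells that carry markers of mature blood lineages, in C57BL/6 mice of 4 genotypes. The groups were Tet2+/-;Ins2Akita/+ (the double mutant, n = 3 libraries), Tet2+/- (n = 3), Ins2Akita/+ (n = 2) and wild type (WT, n = 3). The Tet2 protein is a dioxygenase that starts the removal of methyl marks from DNA, and Tet2+/- denotes a heterozygous mutation whose design the labels do not give. The Ins2Akita allele is a dominant mutation of an insulin gene whose misfolded product damages pancreatic beta cells and raises blood glucose. The labels name no promoter or Cre, and they state neither the ages of the mice nor whether animals were pooled. Nothing in them ties each library to its own animal, so the p-values below rest on the spread between libraries alone, which may be technical.

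Class II molecules are pairs of an alpha and a beta chain that display peptides from endosomes to CD4+ T cells. The invariant chain Cd74 holds new pairs in shape and takes them to endosomes, H2-DM removes its last fragment and helps to select peptides, and H2-O restrains H2-DM. B cells, dendritic cells and macrophages carry the pathway, and the coactivator Ciita switches on its genes together by docking on factors bound to the X and Y boxes of their promoters.

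Promoter stretches of 5 members are shown because Ciita acts through these boxes. Of these, 4 held the spaced pair searched for, and on its own strand H2-Aa held only the Y box string of that pair. Windows of 300 bases, from 250 before to 50 after the transcription start, were taken from RefSeq (build GRCm38.p6) and searched on both strands for the Y box ATTGG and for ACNNATG, a core of the X box, which cannot overlap at the spacing searched. The pair, with ATTGG starting 25 to 35 bases after the start of ACNNATG, lay on the gene's own strand in H2-Eb1, H2-DMb1, H2-DMb2 and H2-Ob, and also in the class II gene H2-Eb2. The stretches below run 5' to 3' on the strand of the gene, with ACNNATG and ATTGG in capitals.
H2-Eb1 (chr17:34305759-34305832, plus strand): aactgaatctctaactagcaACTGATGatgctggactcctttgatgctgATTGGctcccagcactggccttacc
H2-DMb1 (chr17:34153080-34153154, plus strand): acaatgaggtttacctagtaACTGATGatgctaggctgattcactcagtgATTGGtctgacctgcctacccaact
H2-DMb2 (chr17:34145109-34145183, plus strand): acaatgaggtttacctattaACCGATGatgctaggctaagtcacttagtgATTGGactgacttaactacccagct
H2-Ob (chr17:34238801-34238872, plus strand): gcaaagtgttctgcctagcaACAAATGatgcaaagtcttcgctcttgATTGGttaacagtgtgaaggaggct
H2-Aa (chr17:34287847-34287921, minus strand): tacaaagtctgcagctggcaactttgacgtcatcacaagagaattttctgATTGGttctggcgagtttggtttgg
The distance between the starts of the boxes was 29 bases in H2-Eb1, 30 bases in H2-DMb1 and in H2-DMb2, and 27 bases in H2-Ob. In these 4 genes the Y box began 59, 61, 90 and 57 bases before the start. The H2-Aa window held ATTGG 48 bases before the start and no ACNNATG on that strand, and neither window of H2-DMa held the pair. The window of H2-Oa, a class II gene outside the members, did not hold the pair either. No window is described here for H2-Ab1, Ciita or Cd74, so nothing is said about the boxes of these members. Of 32851 promoter windows of the same length, 37.4% held ATTGG, 30.2% held ACNNATG and 0.338% (111 windows) held the spaced pair. These matches describe letters and do not show that a factor was bound. Other forms of the X box were not searched for, so a window without ACNNATG may still hold an X box.

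Total counts were 14814409 to 22600405 per library, and 3 counts, the limit that a count of 0 allows, corresponded to 0.133 to 0.203 CPM (counts scaled to library size with TMM factors), a limit that covers counting error only. Tet2 was at 66.5, 108 and 34.2 CPM in the libraries labelled as double mutants, 19, 18.5 and 19.3 CPM in those labelled Tet2+/-, 131 and 107 CPM in Ins2Akita/+ and 91.2, 128 and 45.1 CPM in WT. The libraries labelled as double mutants thus carried more Tet2 RNA than those labelled Tet2+/- and overlapped with WT, so genotypes below are those of the labels. Libraries numbered 3 stood apart, with mitochondrial shares of 9.76% in the double mutant, 4.46% in Tet2+/- and 3.43% in WT, against 1.36% to 1.94% in the 8 others. There was no Ins2Akita/+ library numbered 3 among those used, and results are given below with and without the libraries of that number. Summed markers of stem and progenitor cells reached 564 to 938 CPM, but maturing neutrophil markers reached 2079 to 69424 CPM. RNA of genes that mark maturing neutrophils was thus present in the fraction, and how mature the cells were was not tested.

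The 3 chain genes were lower in every double mutant library than in any WT or Ins2Akita/+ library. They encode the alpha and beta chains of I-A (H2-Aa and H2-Ab1) and the beta chain of I-E (H2-Eb1), which C57BL/6 mice do not display because they lack a working I-E alpha gene. H2-Aa (ENSMUSG00000036594.14) was at 62.6, 63 and 31.3 CPM in double mutant libraries 1 to 3, 247, 266 and 55.5 CPM in Tet2+/-, 153 and 149 CPM in Ins2Akita/+ and 214, 191 and 78.1 CPM in WT. The double mutant range ended below the lowest WT and Ins2Akita/+ libraries, whereas the low Tet2+/- library numbered 3 lay inside it. H2-Ab1 (ENSMUSG00000073421.5) had 55.9, 54.4 and 41.6 CPM in the double mutant, 167, 219 and 54.9 CPM in Tet2+/-, 122 and 122 CPM in Ins2Akita/+ and 159, 148 and 65.8 CPM in WT. Its 3 double mutant values stood close together, and again only the Tet2+/- library numbered 3 reached down to them. H2-Eb1 (ENSMUSG00000060586.10) had 39.7, 32.4 and 23.6 CPM in the double mutant, 137, 185 and 34.5 CPM in Tet2+/-, 82.9 and 86.1 CPM in Ins2Akita/+ and 114, 111 and 44.2 CPM in WT. Its groups were ordered in the same way. All 3 genes lie in the class II region of chromosome 17 in GRCm38 (GENCODE M21), H2-Ab1 at chr17:34257689-34269419, H2-Aa at chr17:34282744-34287823 and H2-Eb1 at chr17:34305867-34316674. The partner gene of the I-E alpha chain, listed as the pseudogene H2-Ea-ps, had 0 counts in 10 libraries and 1 count in 1 Ins2Akita/+ library.

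Cd74 (ENSMUSG00000024610.14), the invariant chain, made up 47% of the summed CPM of the 9 genes over all libraries. It was at 209, 197 and 144 CPM in the double mutant, 587, 888 and 192 CPM in Tet2+/-, 421 and 413 CPM in Ins2Akita/+ and 514, 504 and 269 CPM in WT. Every double mutant library was below every WT and Ins2Akita/+ library, and the Tet2+/- library numbered 3 was within the double mutant range. The summed CPM of the 9 genes, as a percentage, was 0.0366% to 0.0446% in the double mutant and 0.0403% to 0.174% in Tet2+/-. It was 0.088% to 0.0895% in Ins2Akita/+ and 0.0575% to 0.113% in WT. These percentages include the TMM factors and are not shares of the raw counts. In bulk RNA, fewer class II-bearing cells and less class II RNA per cell cannot be told apart.

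Ciita (ENSMUSG00000022504.9, chr16:10480059-10528418), the transactivator, was the member whose double mutant libraries lay below all libraries of each other genotype. Its levels were 1.55, 2.04 and 2.47 CPM in the double mutant, 8.91, 4.51 and 5.36 CPM in Tet2+/-, 4.29 and 4.08 CPM in Ins2Akita/+ and 3.88, 4.83 and 6.53 CPM in WT. Unlike the chain genes, Ciita was not low in the WT library numbered 3, which was the highest of the WT libraries. Of its annotated exon bases, 3.45% also belong to Dexi on the opposite strand, and whether strand was used in counting is not stated in the labels.

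**Figure D1:**
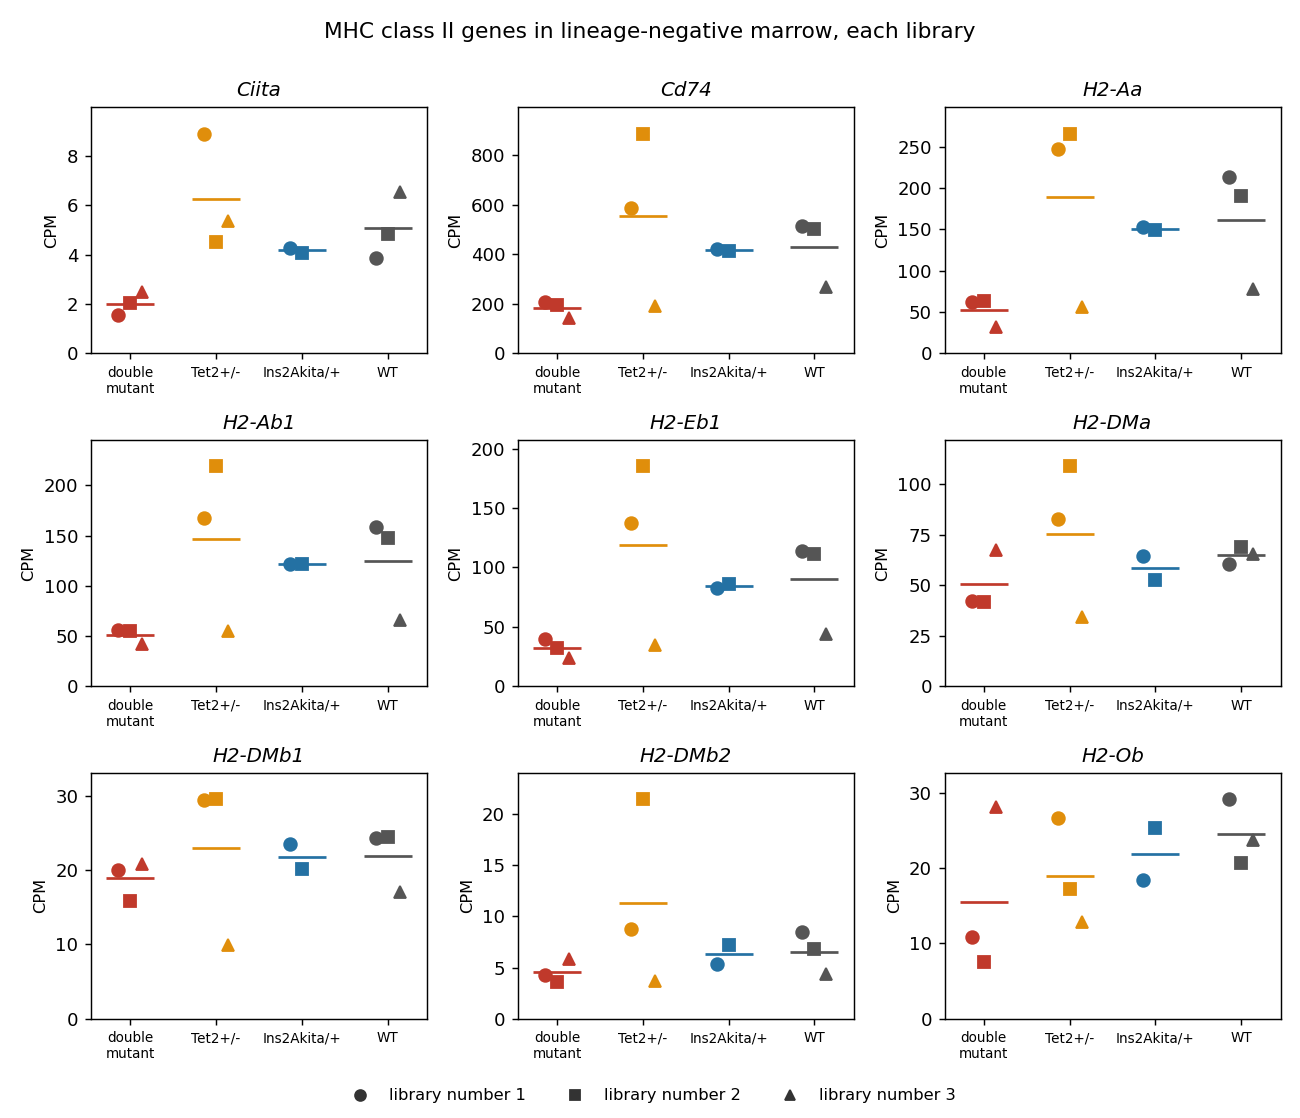
CPM of each of the 9 class II genes (linear axes starting at 0) in every library, by labelled genotype, with circles, squares and triangles for library numbers 1, 2 and 3 and a bar at the group mean. Ciita, Cd74, H2-Aa, H2-Ab1 and H2-Eb1 are lower in all 3 double mutant libraries than in every WT library, while the 4 editing genes overlap.

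The editing genes overlapped between all genotypes. H2-DMa (ENSMUSG00000037649.9), the alpha chain of the peptide editor H2-DM, was at 42.2, 41.6 and 67.7 CPM in the double mutant, 83, 109 and 34 CPM in Tet2+/-, 64.5 and 52.8 CPM in Ins2Akita/+ and 60.3, 68.8 and 65.7 CPM in WT. Double mutant libraries 1 and 2 were below all WT libraries, and library 3 was among them. H2-DMb1 (ENSMUSG00000079547.3), one of the H2-DM beta chains, had 20, 15.9 and 20.9 CPM in the double mutant, 29.5, 29.6 and 9.9 CPM in Tet2+/-, 23.6 and 20.1 CPM in Ins2Akita/+ and 24.4, 24.5 and 17 CPM in WT. H2-DMb2 (ENSMUSG00000037548.14), its neighbouring copy, had 4.26, 3.58 and 5.83 CPM in the double mutant, 8.82, 21.5 and 3.67 CPM in Tet2+/-, 5.38 and 7.25 CPM in Ins2Akita/+ and 8.51, 6.82 and 4.36 CPM in WT. In both beta chain genes the WT library numbered 3 lay inside the double mutant range. H2-DMb1 shared 22.7% of its 50-base words with H2-DMb2, and H2-DMb2 shared 21.2% with H2-DMb1, so the division of reads between the copies is uncertain. H2-DMa shares 10.4% of its exon bases with Brd2 on the opposite strand. Brd2 averaged 527 ± 73.4 CPM in the double mutant and 551 ± 76.9 CPM in WT (SD, n = 3 each).

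H2-Ob (ENSMUSG00000041538.15), the beta chain of the H2-DM inhibitor H2-O, was at 10.9, 7.51 and 28.2 CPM in the double mutant, 26.7, 17.3 and 12.9 CPM in Tet2+/-, 18.4 and 25.3 CPM in Ins2Akita/+ and 29.2, 20.7 and 23.7 CPM in WT. Double mutant libraries 1 and 2 were the lowest of all 11, and library 3 was the second highest. Its partner H2-Oa, the alpha chain of H2-O, showed the same split, with 5.81, 6.07 and 25 CPM in the double mutant and 14.4, 10.7 and 15.5 CPM in WT. The 4 editing genes lie at chr17:34119541-34139101 (H2-DMa), chr17:34143307-34151555 (H2-DMb2), chr17:34153072-34160230 (H2-DMb1) and chr17:34238903-34254414 (H2-Ob).

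Set against WT, the double mutant had lower fitted levels of all 9 genes, and none passed the adjusted threshold of 0.05 in edgeR's quasi-likelihood test over all genes. The chain genes had log2 differences of -1.62 (SE 0.57) for H2-Aa, -1.49 (SE 0.55) for H2-Eb1 and -1.29 (SE 0.47) for H2-Ab1, and adjusted p of 0.403, 0.43 and 0.415. Cd74 differed by -1.23 (SE 0.47, adjusted p = 0.453) and Ciita by -1.33 (SE 0.36, adjusted p = 0.238). The editing genes differed by -0.36 (SE 0.37) for H2-DMa, -0.22 (SE 0.38) for H2-DMb1, -0.53 (SE 0.56) for H2-DMb2 and -0.66 (SE 0.47) for H2-Ob. The interval of 2 SE each way ran from -1.11 to 0.38 for H2-DMa and from -1.60 to 0.28 for H2-Ob, so a level 2-fold lower than in WT lay within both intervals. The edgeR test called 0 of 9 members and 0.0448% of all genes, with 5 of 9 members and 1374 of all genes at an unadjusted p under 0.05. DESeq2 called 1 member, Ciita, where it called 2.61% of all genes, and limma voom called 0. The median log2 difference was -1.23 over the members and -0.05 over all genes. Every double mutant library lay below every WT library in 5 of 9 members, where 8.57% of all genes did so.

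Within library numbers, the direction of the 5 genes without overlap is set by that lack of overlap, so the sizes are given as a description. H2-Aa in the double mutant was 29.3%, 33% and 40.1% of the WT library of the same number for numbers 1, 2 and 3. Ciita was at 40.1%, 42.2% and 37.8% of WT, and Cd74 at 40.6%, 39% and 53.6%. H2-Ab1 and H2-Eb1 reached 63.3% and 53.3% of WT in number 3. The editing genes divided by number: H2-DMa was at 69.9% and 60.5% of WT in numbers 1 and 2 but 103% in number 3, H2-DMb1 at 81.9%, 64.6% and 123%, H2-DMb2 at 50%, 52.5% and 134%, and H2-Ob at 37.3%, 36.3% and 119%. With the library number as a block in the edgeR fit, 1 of 9 members, H2-Aa, was called lower (log2 -1.55, SE 0.23, adjusted p = 0.0277), where 1.63% of all genes were called. Cd74, H2-Ab1, H2-Eb1 and Ciita then had adjusted p of 0.0723, 0.0579, 0.0566 and 0.0862. Without the libraries numbered 3, 5 of 9 members were called lower, where 3.44% of all genes were called: H2-Aa (log2 -1.69, adjusted p = 0.0026), H2-Eb1 (-1.64, 0.00742), H2-Ab1 (-1.47, 0.00742), Cd74 (-1.33, 0.017) and H2-Ob (-1.44, 0.0444). That fit rests on 2 libraries a group.

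**Figure D2:**
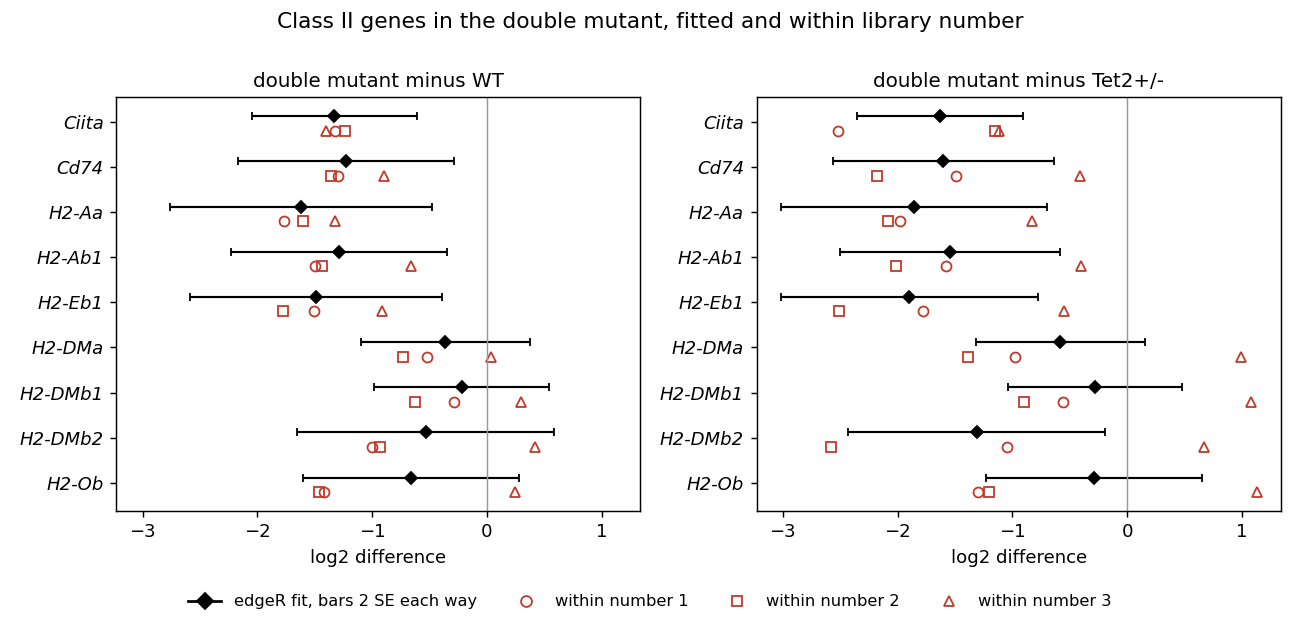
Log2 difference of each class II gene in the double mutant against WT (left) and against Tet2+/- (right). Black diamonds are the edgeR fit with bars of 2 SE each way, and open circles, squares and triangles are the differences within library numbers 1, 2 and 3. For the 4 editing genes the triangle lies above 0 on both sides and the circle and square below it.

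Against Tet2+/-, the double mutant again had lower fitted levels of all 9 genes. The log2 differences were -1.86 (SE 0.58) for H2-Aa, -1.90 (SE 0.56) for H2-Eb1, -1.54 (SE 0.48) for H2-Ab1, -1.60 (SE 0.48) for Cd74 and -1.63 (SE 0.36) for Ciita, with adjusted p of 0.113 for Ciita and 0.239 to 0.253 for the others. The editing genes differed by -0.58 (SE 0.37) for H2-DMa, -0.28 (SE 0.38) for H2-DMb1, -1.31 (SE 0.56) for H2-DMb2 and -0.29 (SE 0.47) for H2-Ob. The edgeR test called 0 of 9 members and 0.262% of all genes, with 6 members and 1701 of all genes at an unadjusted p under 0.05. DESeq2 called 3 members (Cd74, Ciita and H2-Eb1) and 3.45% of all genes, and limma voom called 0. With the block, 5 of 9 members were called lower, where 4.5% of all genes were called: H2-Aa (-1.65, adjusted p = 0.014), H2-Eb1 (-1.64, 0.0263), H2-Ab1 (-1.33, 0.031), Cd74 (-1.40, 0.0344) and Ciita (-1.64, 0.0375). Without the libraries numbered 3, 9 of 9 members were called lower, where 7.71% of all genes were called, from -0.72 for H2-DMb1 to -2.16 for H2-Eb1. Leaving out the Tet2+/- library numbered 3 alone called Cd74 (-2.01, adjusted p = 0.043) and H2-Eb1 (-2.34, adjusted p = 0.0459). Ciita was the 1 member with every double mutant library below every Tet2+/- library, where 6.68% of all genes showed this. In number 3 the editing genes ran the other way, with H2-DMa, H2-DMb1, H2-DMb2 and H2-Ob of the double mutant at 199%, 211%, 159% and 219% of Tet2+/-.

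Against Ins2Akita/+, the log2 differences of the double mutant were -1.53 (SE 0.62) for H2-Aa, -1.40 (SE 0.60) for H2-Eb1, -1.27 (SE 0.51) for H2-Ab1, -1.19 (SE 0.52) for Cd74 and -1.05 (SE 0.39) for Ciita. The edgeR test called 0 of 9 members and 0.0384% of all genes, with 5 members and 1032 of all genes at an unadjusted p under 0.05, and DESeq2 and limma voom each called 0 members. The same 5 genes were lower in every double mutant library, where 19.9% of all genes were, a larger background because Ins2Akita/+ has 2 libraries. Without the libraries numbered 3, 4 of 9 members were called lower, where 2.89% of all genes were called: H2-Aa (-1.27, adjusted p = 0.00782), H2-Ab1 (-1.15, 0.0154), H2-Eb1 (-1.23, 0.0174) and Cd74 (-1.04, 0.0331).

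No member was called in either single mutant against WT. In Tet2+/-, log2 differences ran from -0.37 for H2-Ob to 0.78 for H2-DMb2, and 8 of 9 were above 0. That direction depended on the libraries used. Without Tet2+/- library 2, 8 of 9 were below 0 (from -0.31 for H2-Ob to -0.06 for H2-Eb1, with Ciita at 0.49), and within number 3 all 9 members were lower in Tet2+/- than in WT. Without the libraries numbered 3, 8 of 9 were above 0 (median 0.52, against -0.01 over all genes). That edgeR fit called 0 of 9 members and 0.146% of all genes, with 5 members and 1039 of all genes at an unadjusted p under 0.05. With all libraries, edgeR called 0 of 9 members and 0.0256% of all genes, with 0 members and 332 of all genes at an unadjusted p under 0.05. In Ins2Akita/+, log2 differences ran from -0.28 for Ciita to -0.01 for H2-DMb1. The edgeR test on all libraries called 0 of 9 members and 0% of all genes, with 0 members and 67 of all genes at an unadjusted p under 0.05, and DESeq2 and limma voom called 0 members in both comparisons. Ins2Akita/+ had no library numbered 3, whereas WT did. Without the libraries numbered 3, all 9 members were below 0 in Ins2Akita/+ (median -0.28, against 0.00 over all genes). H2-Aa then differed by -0.42 (-0.66 to -0.18, 2 SE each way) and H2-Eb1 by -0.41 (-0.75 to -0.08). That fit called 0 of 9 members, with 2 members and 102 of all genes at an unadjusted p under 0.05, and rests on 2 libraries a group. With all libraries the intervals were wide: for H2-Aa, 2 SE each way spanned -0.88 to 1.36 in Tet2+/- and -1.34 to 1.17 in Ins2Akita/+. Both comparisons share the WT libraries, as the 3 comparisons above share those of the double mutant.

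Whether the double mutant departed from the sum of both single mutants was tested as an interaction, the difference of the double mutant from Ins2Akita/+ minus that of Tet2+/- from WT. It was -1.81 (SE 0.81) for H2-Eb1, -1.77 (SE 0.84) for H2-Aa, -1.56 (SE 0.70) for Cd74, -1.51 (SE 0.69) for H2-Ab1 and -1.35 (SE 0.52) for Ciita on the log2 scale. For the editing genes it ran from -0.13 (SE 0.70) for H2-Ob to -1.26 (SE 0.83) for H2-DMb2. The edgeR test called 0 of 9 members and 0% of all genes, with adjusted p of 1 for each member and 3 members and 537 of all genes at an unadjusted p under 0.05. DESeq2 and limma voom called 0 members. Without the libraries numbered 3, 1 of 9 members was called, H2-Aa (-1.61, SE 0.17, adjusted p = 0.0204), where 0.0464% of all genes were called.

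The libraries numbered 3 differed from numbers 1 and 2 in the pathway, and not in the same way in each genotype. In WT the number 3 library had 38.6% of the mean H2-Aa level of numbers 1 and 2, 39.3% of H2-Eb1, 43% of H2-Ab1 and 53% of Cd74, but 150% of Ciita and 102% of H2-DMa. In Tet2+/- it had 21.6% of H2-Aa, 21.4% of H2-Eb1 and 26.1% of Cd74, and 79.9% of Ciita, and the editing genes were low there as well, at 24.2% for H2-DMb2, 33.5% for H2-DMb1, 35.5% for H2-DMa and 58.4% for H2-Ob. In the double mutant it had 49.9% of H2-Aa and 71.3% of Cd74, but 138% of Ciita, 162% of H2-DMa and 307% of H2-Ob. The chain genes and Cd74 were thus lower in number 3 in all 3 genotypes that have one, and Ciita in Tet2+/- only.

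The balance between the members within a library, as a ratio of CPM per kilobase of exon, spanned a narrower range between Cd74 and the chain genes than with the editing genes or Ciita. Cd74 over H2-Ab1 was 5.52 ± 0.205 in the double mutant, 5.64 ± 0.478 in Tet2+/-, 5.23 ± 0.0749 in Ins2Akita/+ and 5.48 ± 0.691 in WT (SD, n = 3, 3, 2 and 3). H2-DMa over H2-Ab1 was 0.562, 0.57 and 1.21 in the double mutant, 0.371, 0.369 and 0.461 in Tet2+/-, 0.394 and 0.322 in Ins2Akita/+ and 0.283, 0.346 and 0.743 in WT. The H2-DMa to H2-Ab1 ratio was higher in the double mutant than in the other genotypes within each number, although the WT library numbered 3 exceeded double mutant libraries 1 and 2. Ciita over H2-Ab1 was 0.00749, 0.0101 and 0.016 in the double mutant, 0.0144, 0.00554 and 0.0263 in Tet2+/-, 0.00948 and 0.009 in Ins2Akita/+ and 0.00659, 0.0088 and 0.0267 in WT, with full overlap.

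**Figure D3:**
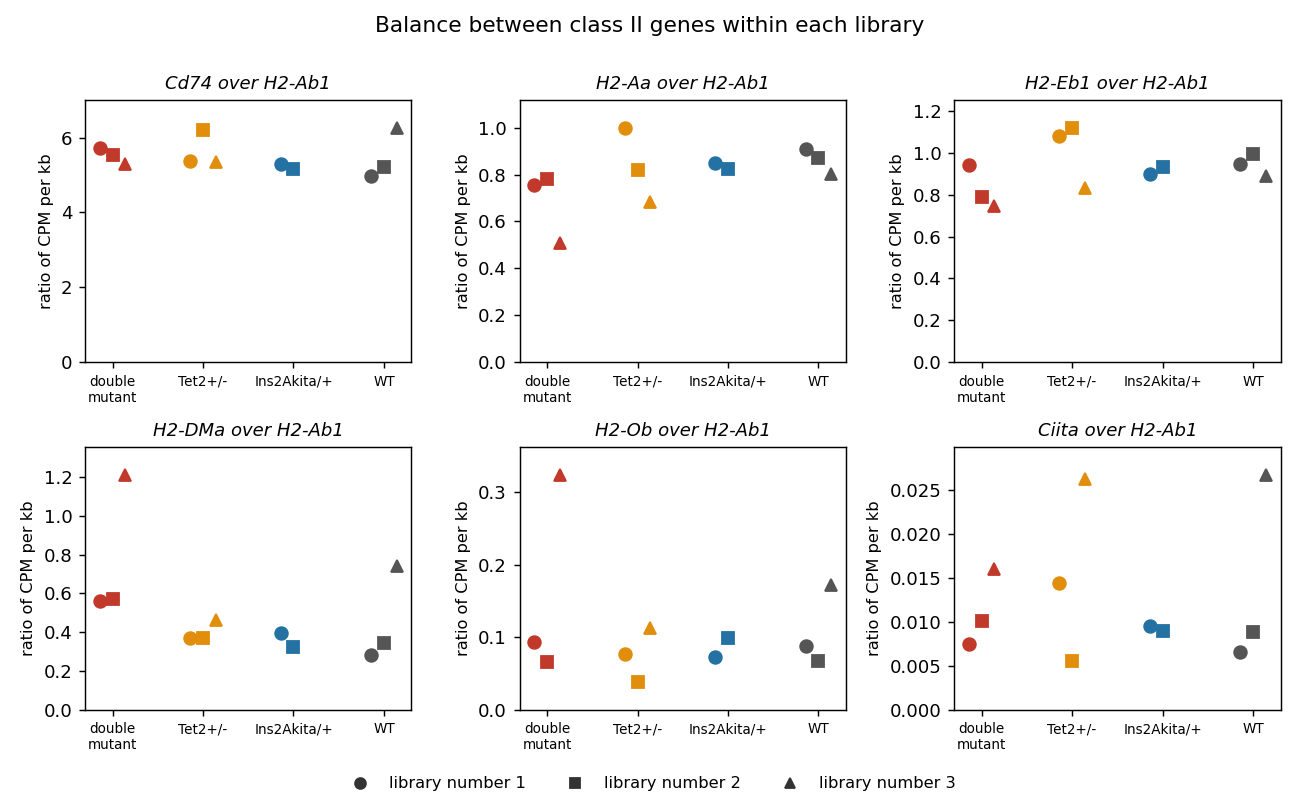
Ratios of CPM per kilobase between class II genes in each library (linear axes starting at 0), by labelled genotype and library number. Cd74 over H2-Ab1 stays between 4.96 and 6.26 in all libraries, while H2-DMa over H2-Ab1 reaches 1.21 in double mutant library 3.

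Per length and averaged over all 11 libraries, Cd74 was the highest member at a mean of 235 CPM per kilobase, followed by H2-Ab1 at 42.8, H2-Eb1 at 41.6 and H2-Aa at 36.2 CPM per kilobase. H2-DMa (18.2) and H2-DMb1 (12.7) came next, then H2-DMb2 (4.16), H2-Ob (3.73) and Ciita (0.462 CPM per kilobase). Within WT, the ranges of H2-Ab1 and H2-Eb1, of H2-Eb1 and H2-Aa, and of H2-DMb2 and H2-Ob overlapped, and H2-DMb2 was above H2-Ob in 5 of 11 libraries. By group means, in CPM per kilobase, H2-Ob was above H2-DMb2 in Ins2Akita/+ (4.06 and 3.62) and in WT (4.55 and 3.76). It was above H2-DMb2 in the double mutant (2.89 and 2.61) and below it in Tet2+/- (3.52 and 6.48). Single libraries set these last means. H2-Ob was below H2-DMb2 in double mutant libraries 1 (2.02 and 2.44) and 2 (1.4 and 2.05) and above it in library 3 (5.24 and 3.34). In Tet2+/- the gap came mostly from library 2 (3.21 and 12.3). The double mutant mean of H2-DMa exceeded that of H2-Aa (14.6 and 13.8) through library 3 alone (19.6 and 8.24).

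Other genes of the pathway were less uniform. The 7 factors that bind class II promoters (such as Rfxank, Rfxap, Nfya and Nfyc, parts of the RFX and NF-Y complexes) had a median log2 difference of -0.18 in the double mutant against WT. Of these, edgeR called 0 (0 at an unadjusted p under 0.05), as did DESeq2 and limma voom. The 8 endosomal processing genes had a median of -0.06 and 0 calls by the same tools (1 at an unadjusted p under 0.05). The protease gene Ctsd averaged 854 CPM in the double mutant and 582 CPM in WT (log2 0.55, SE 0.20, adjusted p = 0.411). The 11 class I presentation genes had a median of 0.16, with 7 above 0 and 0 calls by each tool (0 at an unadjusted p under 0.05). Nlrc5, the class I counterpart of Ciita, differed by -0.43 (SE 0.23, adjusted p = 0.679). The 7 genes of class II turnover and costimulation had a median of -0.38 and 0 calls by each tool (0 at an unadjusted p under 0.05). Cd83, whose product keeps class II molecules on the surface, was at 25.2, 28.7 and 2.41 CPM in the double mutant and 67.1, 54.3 and 7.02 CPM in WT, and was called lower with the block (log2 -1.29, adjusted p = 0.0252).

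Factors known to act on Ciita promoters, or to mark the cells that use them, included the lowest values. Of 8 such genes, edgeR called 0 in the double mutant against WT (4 at an unadjusted p under 0.05), DESeq2 called 4 and limma voom 2, and the median was -1.02. Spib, an ETS factor of plasmacytoid dendritic and B cells, was at 10.4, 7.46 and 4.25 CPM in the double mutant and 44.4, 37.8 and 45.7 CPM in WT (log2 -2.53, SE 0.35, adjusted p = 0.0506). Pax5, the B lineage factor, was at 3.11, 0.497 and 2.47 CPM in the double mutant and 28.1, 26.9 and 17.4 CPM in WT (log2 -3.57, SE 0.56, adjusted p = 0.068). Both groups were apart in both genes, and with the block edgeR called 4 of the 8 lower, Spib (adjusted p = 0.0115), Pax5 (0.0277), Tcf4 (0.0307) and Irf4. Irf8, a factor of dendritic and B cells, was at 88.9, 87.6 and 62.3 CPM in the double mutant and 180, 175 and 361 CPM in WT (log2 -1.58, SE 0.32, adjusted p = 0.117). Of 9 genes of interferon gamma signalling, a list that also holds Irf8, edgeR called 0 (1 at an unadjusted p under 0.05), DESeq2 called 1 and limma voom 0, with a median of -0.32.

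Of 4 marker lists for cell types that carry class II, the B lineage and plasmacytoid dendritic cell sums were lower in the double mutant, and the conventional dendritic cell and monocyte sums overlapped with WT. The 14 B lineage markers summed to 87.3, 73.2 and 145 CPM in the double mutant, 285, 450 and 238 CPM in Tet2+/-, 222 and 240 CPM in Ins2Akita/+ and 260, 234 and 239 CPM in WT. The 9 plasmacytoid dendritic cell markers summed to 183, 173 and 142 CPM in the double mutant, 538, 838 and 304 CPM in Tet2+/-, 405 and 439 CPM in Ins2Akita/+ and 493, 428 and 360 CPM in WT. Both sums were lower in every double mutant library than in any other library. The class II sum was lowest in number 3 of the double mutant, Tet2+/- and WT. It was 366 CPM in double mutant library 3, against 446 and 417 CPM in libraries 1 and 2. In WT library 3 it was 575 CPM, against 1126 and 1079 CPM, and in Tet2+/- library 3 it was 403 CPM, against 1295 and 1740 CPM. The plasmacytoid sum was also lowest in number 3 of each of these genotypes. So were the monocyte and macrophage sum and the sum of T and NK cell markers, so this trait was not particular to the plasmacytoid list. The conventional dendritic cell sum was lowest in number 3 in the double mutant and Tet2+/- but not in WT. The B lineage sum was lowest in number 3 in Tet2+/- only. In number 3 it was the highest of the double mutant libraries and lay between the others in WT. The 10 conventional dendritic cell markers summed to 291 to 310 CPM in the double mutant and 284 to 340 CPM in WT, and the 10 monocyte and macrophage markers to 494 to 1242 CPM in the double mutant and 377 to 907 CPM in WT, both overlapping. Of the B lineage list 13 of 14 genes were below 0 against WT (median -2.47), and of the plasmacytoid list 9 of 9 (median -1.57), where edgeR called 0 of either (12 and 7 at an unadjusted p under 0.05), DESeq2 called 10 and 6, and limma voom 1 and 1. With the library number as a block, edgeR called 8 of 14 B lineage and 5 of 9 plasmacytoid markers lower. Pax5, Spib and Tcf4 stand in these lists and among the Ciita factors. Against Tet2+/-, edgeR called 3 of 9 plasmacytoid markers lower in the double mutant (Klk1, Pacsin1 and Spib). Of the 9 conventional dendritic cell markers tested, 7 were below 0 against WT and 2 above (median -0.64). For these edgeR called 0 (4 at an unadjusted p under 0.05), DESeq2 called 2 and limma voom 0. With the block, edgeR called 3 of the 9 lower, Cd209a, Clec9a and Zbtb46. Among them, Clec9a was at 1.85, 1.59 and 0.761 CPM in the double mutant and 7.61, 5.83 and 8.71 CPM in WT (log2 -2.38, SE 0.41, adjusted p = 0.0779). With the block its log2 difference was -2.46 (adjusted p = 0.0277). The 10 T and NK cell markers summed to 162 to 210 CPM in the double mutant and 130 to 319 CPM in WT. Their median log2 difference was -1.05, with 7 of 10 below 0, and edgeR called 0 with or without the block (6 at an unadjusted p under 0.05 in either), DESeq2 called 1 and limma voom 0. Without the libraries numbered 3, edgeR called 5 of them lower. The 11 erythroid markers summed to 358 to 1855 CPM in the double mutant and 764 to 2858 CPM in WT. The part of these cell types in the class II values was not tested.

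**Figure D4:**
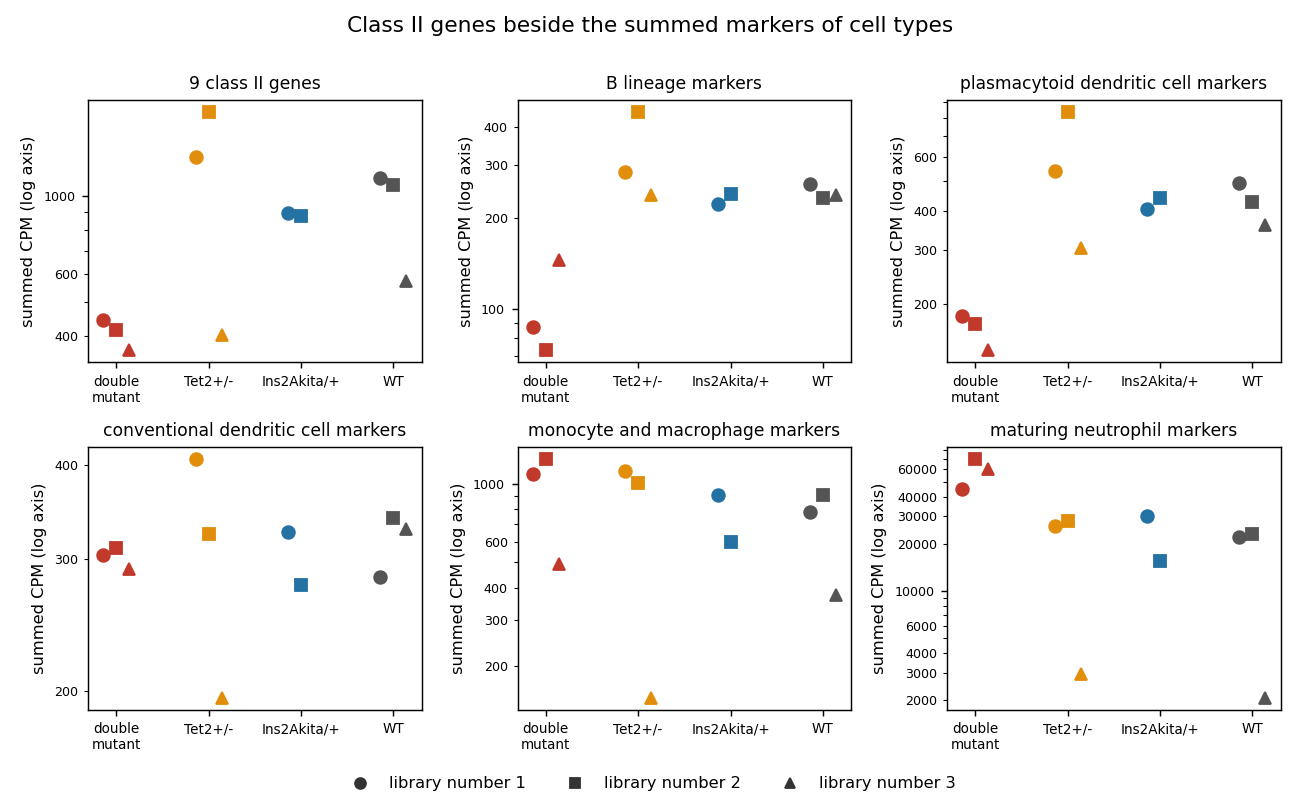
Summed CPM (log axes) of the 9 class II genes and of 5 lists of cell type markers in each library, by labelled genotype and library number. The B lineage and plasmacytoid dendritic cell sums are lowest and the neutrophil sum is highest in the 3 double mutant libraries. The class II sum is 366 to 446 CPM there, a range that also holds the Tet2+/- library numbered 3 at 403 CPM.

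The genes whose pattern over the 11 libraries was most like the mean of the 9 members, by Pearson's r of log2 CPM given as a description, were Rnf122 (0.985), Fyn (0.974), Slc41a2 (0.966), Dusp5 (0.959), Tmcc3 (0.956), Paip2b (0.953), Klrc1 (0.95) and Ankrd10 (0.947). These libraries share genotypes and numbers, which sets part of such likeness. Dusp5, the most abundant of the first 4, ranged from 85.5 to 94.4 CPM in the double mutant, 65.7 to 261 CPM in Tet2+/-, 160 to 173 CPM in Ins2Akita/+ and 112 to 194 CPM in WT.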

How the data were processed

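The authors deposited 1 table of raw counts, whole numbers per gene and library. The submitters' processing notes list bcl2fastq, TopHat2 2.1.1 and Trimmomatic 0.32, and build GRCm38. Counter, annotation release and strand setting were not given in the sources used here, so counts of overlapping, antisense and paralogous genes are uncertain. Of 12 labelled samples, 11 had a matching column. A double mutant sample, number 4 in the labels, was not analysed here, and 1 column that matched no label was not used. Total counts of 14814409 to 22600405 set the precision, and no pair of libraries of a group agreed within sampling noise (lowest chi-square per gene 17.2).

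Identifiers were matched to GENCODE M21 without their version (30875 of 31060). Genes were kept by filterByExpr (15630) and tested with edgeR 4.0.16 in R 4.3.3: TMM factors, all 4 groups in one fit by genotype, glmQLFit with robust=TRUE, glmQLFTest and Benjamini-Hochberg adjustment over all genes tested, with adjusted p under 0.05 as a call. The SE is the log2 difference over the square root of F. The fit was tested on simulated data. Alternatives were DESeq2 1.42.0, limma 3.58.1 voom, RLE and upper quartile factors, the replicate block, testing without the low count filter or at a mean of 5 CPM or more, both groups alone, robust=FALSE, each library left out and all libraries numbered 3 left out. The labels number the replicates without saying what a number stands for. Deviations of same-numbered libraries correlated at 0.318 to 0.791 among the double mutant, Tet2+/- and WT groups, each over 0.1, and by that rule equal numbers were taken as pairs in these 3 groups, although the nearest library had the same number for 4 of 9 libraries. Ins2Akita/+ did not meet that rule (0.0661 and -0.351 with WT). The block fit nevertheless used the numbers of all 4 groups, those of Ins2Akita/+ included.

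The members and lists were chosen with earlier results of these data known. All 9 members are named, with up to 4 genes per list by smallest p in double mutant against WT at a mean of at least 1 CPM, called genes, H2-Oa, H2-Ea-ps, Tet2 and the 8 genes most like the members; not every gene the rule allows is printed. Brd2 and Dexi were named for their overlap with members after values were seen.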

Additional observations from a re-analysis of the deposited data

How the results depend on the processing

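The 9 members were fitted in 6 comparisons under each alternative, except Ciita at a mean of at least 5 CPM, which it does not reach, and the interaction with both groups alone, which needs all 4 groups. Of 1119 single-gene values, 1088 kept their direction and side of the threshold or had no call in either fit, 31 passed the threshold only under the alternative, and none reversed a call. With the replicate block the number of members called was 1 in the double mutant against WT and 5 against Tet2+/-, and the block changed no call in the other comparisons. DESeq2 called 1 and 3 members in these 2 comparisons. Without the libraries numbered 3 the counts were 5 against WT, 9 against Tet2+/-, 4 against Ins2Akita/+ and 1 in the interaction. Leaving out each library in turn gave 0 to 2 called members against Tet2+/- (2 without the Tet2+/- library numbered 3) and 0 in the other comparisons. The causes were not tested, except that fewer samples enter the fits without libraries. H2-Aa against WT stayed between -1.95 and -1.36 with each library left out, and H2-Ob between -1.41 and -0.33. Low counts limit Ciita, H2-Eb2 and H2-Ea-ps most.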
